A study of Mus musculus with 4 samples.

Results

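H3K36me3 was examined over the 52 genes for translation initiation factors and their direct regulators, taken as the protein-coding genes of chromosomes 1 to 19 in the GENCODE mouse annotation (release M21, build GRCm38) whose symbol starts with Eif and a digit, out of 20780 protein-coding genes on those chromosomes. Trimethylation of lysine 36 of histone H3 had been mapped by ChIP-seq (sequencing of chromatin immunoprecipitated with the antibody ab9050) in primary renal tubular epithelial cells (PTECs) of C57BL/6 mice. The control PTECs were SETD2fl/fl, with floxed Setd2 alleles and no Cre, and Setd2-KO PTECs carried those alleles together with KspCre (SETD2fl/fl KspCre/+). The Ksp (kidney-specific cadherin) promoter drives Cre in renal tubular epithelium, and the share of cells that had recombined was not measured here, so fewer marked cells and less of the mark per cell cannot be told apart. There were 4 libraries, a ChIP and an input from each genotype, and the authors' 1 peak list per ChIP library. Every difference below therefore sets 1 library beside another, with no replicate check and no p-value, and the 95% Wilson intervals cover counting error only.

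Translation initiation in eukaryotes begins when eIF4E binds the mRNA cap and the scaffold eIF4G joins it to the RNA helicase eIF4A, while eIF2 brings the initiator tRNA to the small ribosomal subunit and the large complex eIF3 links these assemblies. eIF1 and eIF5 act in the choice of the start codon, and eIF5B helps the ribosomal subunits join. H3K36me3 is laid down by SETD2 along the bodies of transcribed genes, typically more densely towards their ends, and most initiation factors are expressed in all cells.

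Of the 52 genes, 34 carried at least 1 control peak in their body (65.4%, interval 51.8 to 76.8), where 20.6% of all protein-coding genes did. A Setd2-KO peak was present in 16 of the 52 (30.8%, interval 19.9 to 44.3), beside 7.76% of all genes. All 16 also had a control peak, so no initiation factor gene was marked in the Setd2-KO list alone. Over all genes, 1473 of the 1613 with a Setd2-KO peak had a control peak too, so this is near the general share. The 16 of 34 control-marked members with a Setd2-KO peak (47.1%, interval 31.5 to 63.3) stand beside 34.5% of all control-marked genes. At a fold enrichment of at least 4 these shares were 7 of 25 (28%) and 23.8%. The higher share in the control list was present in each of the 3 length classes with more than 1 member. It was 9 of 17 genes under 10 kb, beside 7.06% of all genes of that length. It was 15 of 21 from 10 to 30 kb, beside 25.9%, and 9 of 13 from 30 to 100 kb, beside 31.7%. Initiation factor genes were thus more often marked in control PTECs than coding genes of like length, as a count in this library.

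The control list had 129 peaks over the initiation factor genes and covered 75786 bases of them, whereas the Setd2-KO list had 35 peaks over 16152 bases. The ratio of covered bases was 4.69, close to the 4.63 of all genes. Setd2 itself had 5 control peaks over 3077 bases and no Setd2-KO peak. The lists held 12242 control and 2732 Setd2-KO peaks in all, and the genome-wide background recovered from them was 6.58 and 6.54 fragments, a ratio of 0.994. At that background the lowest summit pileup among called peaks was 21 fragments in the control and 23 in the Setd2-KO list, so sites below this level are not listed and a gene without a peak is not shown to lack the mark. Markers of the proximal tubule, fixed as a list, carried a control peak in 13 of 16 genes. None of the 8 markers of later nephron segments (loop of Henle to collecting duct), of the 5 of fibroblasts and pericytes or of the 5 of immune cells did, and 1 of 4 podocyte and 1 of 4 endothelial markers did.

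**Figure D1:**
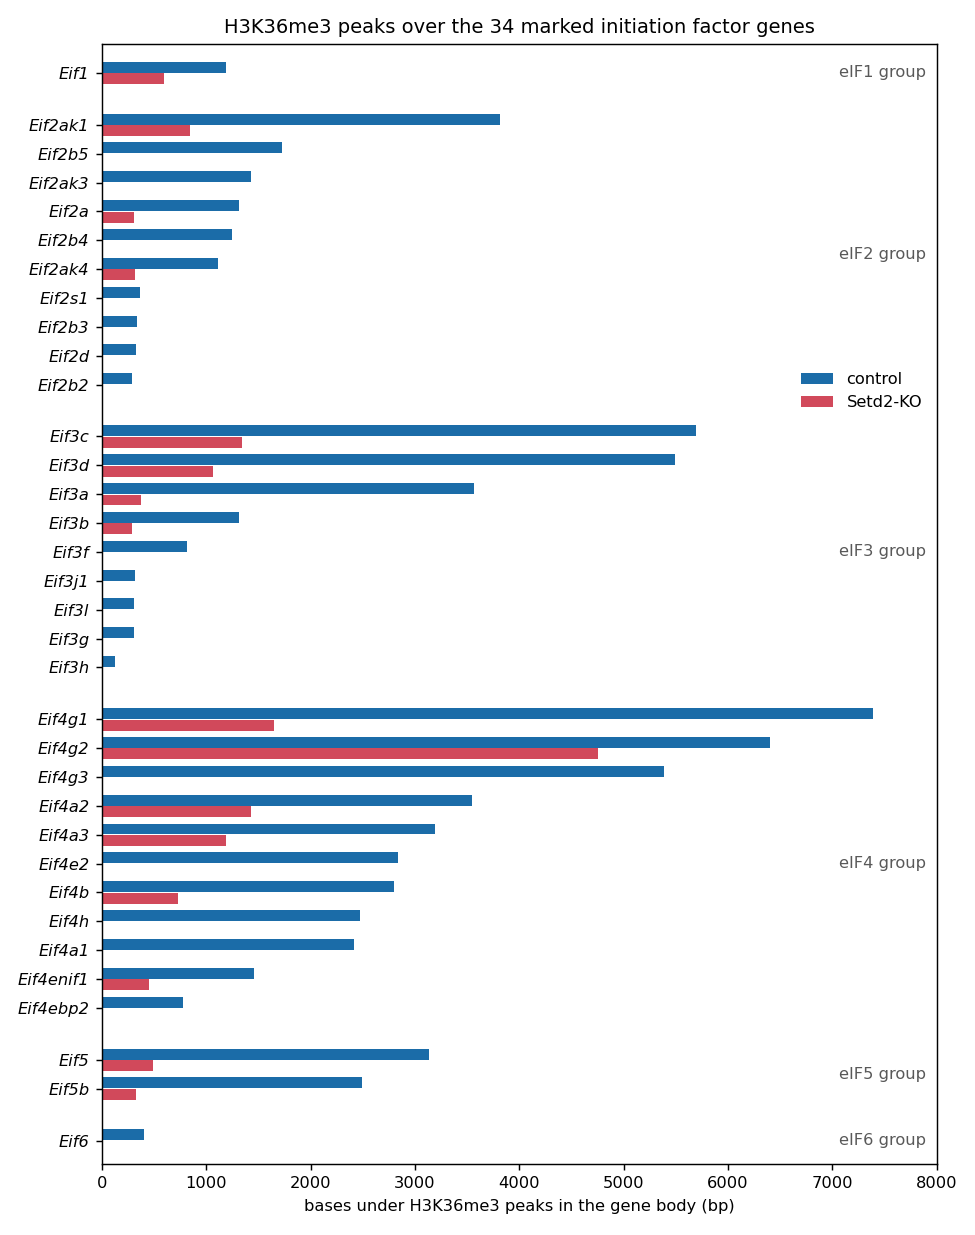
Bases of each gene body under H3K36me3 peaks (horizontal axis, bp) in the 1 control (blue) and 1 Setd2-KO (red) library, for the 34 initiation factor genes with a peak, grouped by factor. In each of the 16 genes with a red bar it is shorter than the blue bar, and Eif4g2 has the longest red bar, 4757 bases.

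The difference was uneven among genes. All 16 genes marked in both lists had fewer bases under Setd2-KO than under control peaks, as had 1353 of the 1473 such genes in all. Their median fell from 3167 control to 659 Setd2-KO bases, and over all genes marked in both from 1785 to 512. The median member kept 23.5% of its control bases, beside 36.6% over all genes marked in both. Members thus had more bases than the median gene in both lists, and the lower percentage is of a larger control value. The 18 genes marked in the control list alone had a median of 588.5 control bases. How much of a gene was covered in control PTECs went with whether it kept a peak. None of the 9 genes with under 500 control bases had a Setd2-KO peak (11.3% over all such genes), and 5 of 9 with 500 to under 1500 did (28.3%). Of those with 1500 to under 3000 control bases 2 of 6 had a Setd2-KO peak (53.9% over all), and of those with at least 3000, 9 of 10 did (395 of 494 over all). The exception among the 10 was Eif4g3.

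**Figure D2:**
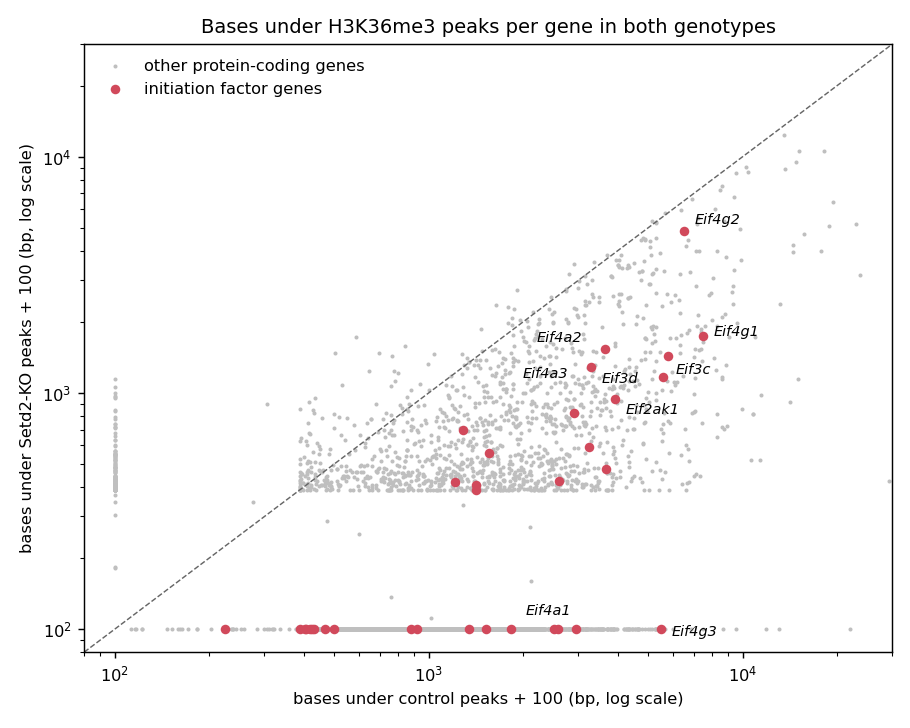
Bases under control peaks (horizontal) and Setd2-KO peaks (vertical) per gene, each plus 100 bp on log axes, for all protein-coding genes of chromosomes 1 to 19 with a peak in either list (grey) and for initiation factor genes (red). The dashed line marks equal coverage. All 34 red points lie below it, with Eif4g2 at 6401 control and 4757 Setd2-KO bases nearest to it and Eif4g3 on the lower edge at 0 Setd2-KO bases.

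The 16 genes of the eIF4 group, which recruits the mRNA, carried the most peaks. A control peak lay in 11 of them and a Setd2-KO peak in 6, with 38673 control and 10203 Setd2-KO bases. The scaffolds alone held 19176 control and 6405 Setd2-KO bases over 3 genes, and each was covered over more than 5 kb in control PTECs. Eif4g1, the main cap-dependent scaffold, had 13 control peaks over 7392 bases and 4 Setd2-KO peaks over 1648. Eif4g2, whose protein lacks the eIF4E-binding region and serves initiation that does not use eIF4E, had 7 control peaks over 6401 bases and 8 Setd2-KO peaks over 4757. Eif4g3, a paralogue of Eif4g1, had 12 control peaks over 5383 bases and no Setd2-KO peak. The 3 scaffold genes thus ran from no called Setd2-KO peak to 74.3% of the control bases.

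Eif4g2 (chr7:111067750-111083030, minus strand, 22 exons) ranked 26 of 1613 genes by bases under Setd2-KO peaks and 107 of 4272 by bases under control peaks. Its ratio of Setd2-KO to control bases was not exceptional, since 308 of the 1473 genes marked in both lists had one at least as high. Of 498 genes marked in both with at least 5 control peaks, 12 had as many Setd2-KO peaks or more, Eif4g2 among them. All but 1 of its 8 Setd2-KO peaks touched a control peak, and the remaining peak, in the last exon, lay 302 bp from the nearest. Without Eif4g2 the other 51 genes had 69385 control and 11395 Setd2-KO bases, a ratio of 6.09 in place of 4.69. Eif4g3 (chr4:137993022-138208508, plus strand, 34 exons) is 215487 bp long, so its 12 control peaks covered 2.50% of it, while those of Eif4g1 and Eif4g2 covered 30.1% and 41.9% of their genes. By control bases Eif4g3 ranked 14 among the 2799 genes with a control peak and no Setd2-KO peak. The 12 summits in Eif4g3 had fold enrichments, the ratio of ChIP pileup to local background, of 2.998 to 4.35.

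Windows of 150 bases around 1 control summit of each scaffold gene show DNA at exon ends under peaks. They are printed 5′ to 3′ on the gene's strand, from the reference genome (RefSeq, GRCm38.p6), with coding exon bases in capitals. They were chosen because each holds an exon end, and the windows of Eif4g1 (chr16:20684114-20684263, plus strand) and Eif4g2 (chr7:111080124-111080273, minus strand) lie under a peak of both lists, while that of Eif4g3 (chr4:138183217-138183366, plus strand) lies under a control peak alone.
Eif4g1: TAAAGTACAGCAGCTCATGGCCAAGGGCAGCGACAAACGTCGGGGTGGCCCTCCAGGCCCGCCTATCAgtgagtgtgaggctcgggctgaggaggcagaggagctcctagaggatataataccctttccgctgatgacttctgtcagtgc
Eif4g2: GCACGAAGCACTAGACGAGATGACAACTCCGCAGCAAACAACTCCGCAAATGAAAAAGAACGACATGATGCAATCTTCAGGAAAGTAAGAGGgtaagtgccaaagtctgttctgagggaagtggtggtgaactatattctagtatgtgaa
Eif4g3: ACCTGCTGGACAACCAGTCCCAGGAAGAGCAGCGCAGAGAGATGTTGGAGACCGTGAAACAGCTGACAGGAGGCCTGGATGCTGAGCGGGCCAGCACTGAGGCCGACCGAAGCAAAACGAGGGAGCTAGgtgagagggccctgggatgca
In the coding transcript used for each gene, all 3 run from coding exon into the intron that follows it. The Eif4g1 summit is also in an exon of a non-coding transcript, and its peak overlaps the non-coding gene Snord66. The Eif4g2 window is in exon 4 of 22 and the Eif4g3 window in exon 25 of 34. Their GC content was 58.0% in Eif4g1, 44% in Eif4g2 and 61.3% in Eif4g3. The fold enrichment of these control peaks was 3.89, 3.41 and 3.43, and their summit pileup was 40, 35 and 25 fragments. The Eif4g2 peak shown is the lowest by fold enrichment of the 7 in that gene, which reach 4.79. Control peaks of Eif4g1 and Eif4g3 reach 5.31 and 4.35, so the windows are not those of the strongest peaks.

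The eIF4A helicases, which unwind mRNA leaders, also differed among themselves. Eif4a1 had 4 control peaks over 2412 bases and none in the Setd2-KO list. Eif4a2 had 3 control peaks over 3546 bases and 3 Setd2-KO peaks over 1428. Eif4a3, whose protein is the helicase of the exon junction complex on spliced mRNA, had 3 control peaks over 3196 bases and 2 Setd2-KO peaks over 1191. Eif4a2 and Eif4a3 also held the strongest sites among all initiation factor genes. Within these genes the highest fold enrichment of the control list was 6.45. It was at Eif4a2 (chr16:23108364-23109784, exons 2 to 4, with the small nucleolar RNA gene Snord2 inside), where 4.65 was found in the Setd2-KO list. At Eif4a3 (chr11:119290614-119292003, in an intron) the control value was 6.07 and the Setd2-KO value 5.17, the highest of the Setd2-KO list in these genes. The other control peaks among the 5 highest were in Eif3d (5.54), Eif4g1 (5.31) and Eif2a (5.28), and the other Setd2-KO peaks among the 5 highest were in Eif5 (4.93), Eif4g2 (4.76), Eif4a2 (4.65) and Eif3d (4.51).

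Both lists placed their strongest Eif4a3 summit in the same intron, 199 bp apart. The windows of 150 bases around these summits (control chr11:119291314-119291463, Setd2-KO chr11:119291115-119291264, both minus strand) are printed with a window of Eif4a1 (chr11:69668114-69668263, minus strand), the helicase gene without a Setd2-KO peak. Capitals again mark coding exon bases.
Eif4a3 control summit: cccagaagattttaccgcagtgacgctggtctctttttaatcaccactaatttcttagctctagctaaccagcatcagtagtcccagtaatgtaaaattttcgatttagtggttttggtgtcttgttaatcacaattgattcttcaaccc
Eif4a3 Setd2-KO summit: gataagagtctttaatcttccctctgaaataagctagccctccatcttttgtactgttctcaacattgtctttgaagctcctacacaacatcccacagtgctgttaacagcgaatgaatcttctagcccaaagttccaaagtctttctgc
Eif4a1 control summit: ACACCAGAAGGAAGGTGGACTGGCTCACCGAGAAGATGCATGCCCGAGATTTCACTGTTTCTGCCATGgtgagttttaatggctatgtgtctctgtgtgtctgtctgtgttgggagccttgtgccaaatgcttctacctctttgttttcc
Neither Eif4a3 window holds coding bases, and both lie under the peaks of both lists. The Eif4a1 window runs from a coding exon into the next intron, as those of the scaffolds do. Its peak, at a fold enrichment of 4.46, is not the strongest of Eif4a1. The windows of the Eif4a1 control peaks at 5.14 and 5.11 hold no coding bases, so this contrast with Eif4a3 depends on the window printed. Copies elsewhere in the genome touch these genes. Of the 32-base words, 61.6% in the strongest Eif4a3 control peak and 61.1% in the printed Eif4a1 peak occurred once in the genome. The median over the 129 control peaks was 98.7%. Of the control peaks 100 had at least 90% such words. How the authors' mapping treated reads from repeated sequence was not tested.

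**Figure D3:**
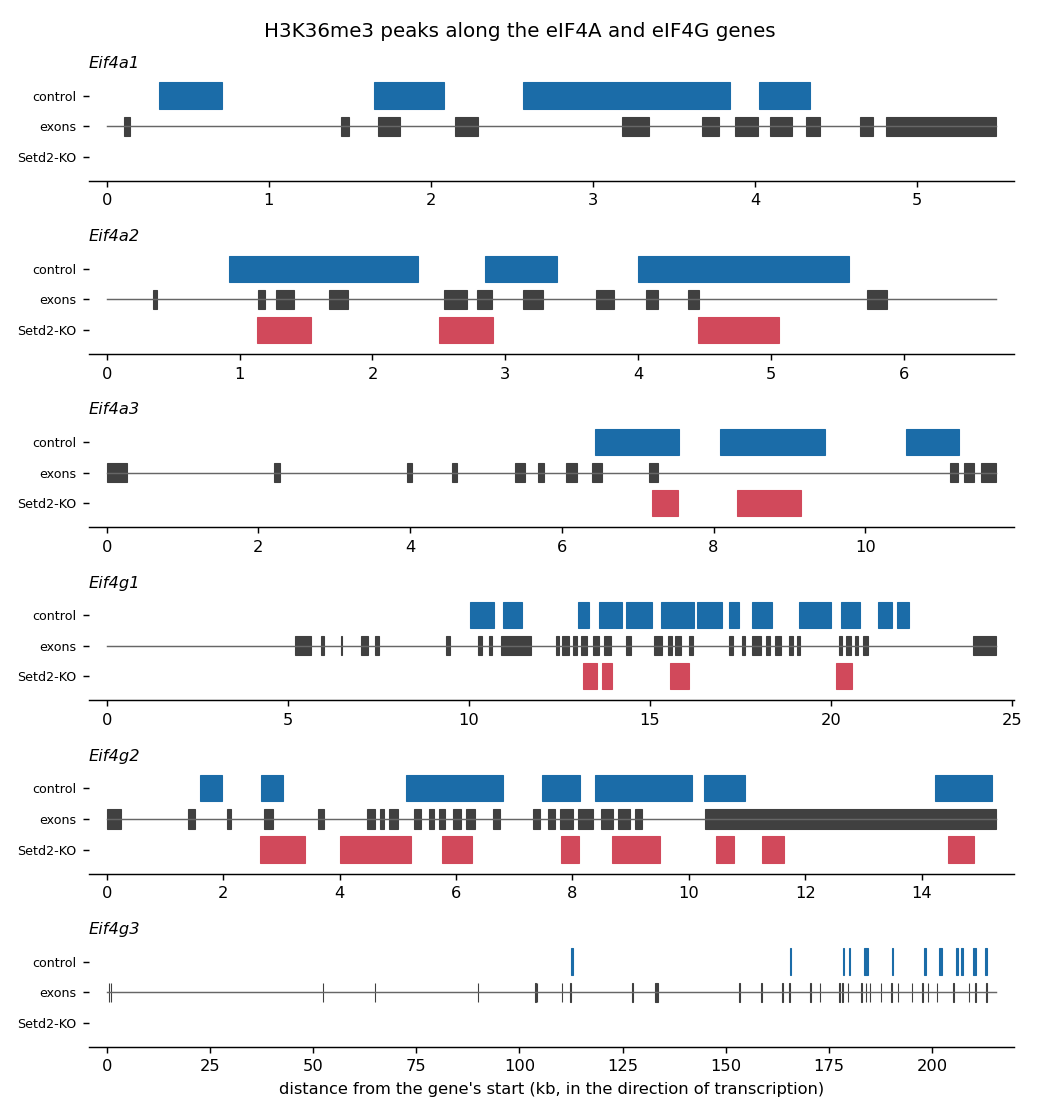
Control peaks (blue), exons (dark grey) and Setd2-KO peaks (red) along Eif4a1, Eif4a2, Eif4a3, Eif4g1, Eif4g2 and Eif4g3, as distance from the gene's start in kb, with a scale of its own for each gene. Eif4a1 (4 control peaks) and Eif4g3 (12 control peaks) have no red block, whereas Eif4g2 has 8 red blocks spread from its early introns to its last exon.

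Among the partners of eIF4A, Eif4b had 6 control peaks over 2797 bases and 2 Setd2-KO peaks over 724. Eif4h, which like Eif4b codes for a cofactor that stimulates the helicase, had 2 control peaks over 2477 bases and none in the Setd2-KO list. In the cap-binding family only Eif4e2, which codes for a cap-binding protein that represses translation, was marked, with 5 control peaks over 2836 bases and no Setd2-KO peak. Eif4e, the gene of the main cap-binding factor, Eif4e1b and Eif4e3 had none in either list. Of the eIF4E-binding repressors, Eif4ebp2 had 2 control peaks over 777 bases and no Setd2-KO peak, and Eif4ebp1 and Eif4ebp3 had none in either list. Eif4enif1, which codes for a protein that carries eIF4E into the nucleus, had 3 control peaks over 1456 bases and 1 Setd2-KO peak over 455. All 4 of its peaks also lay in the annotated body of Drg1, so they cannot be assigned to either gene.

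In the eIF2 group, which delivers the initiator tRNA and whose phosphorylation slows translation under stress, 10 of 13 genes had a control peak and 3 a Setd2-KO peak. Covered bases were 11951 and 1467, a ratio of 8.15, the highest of the factor groups with Setd2-KO peaks. That ratio rests on 3 Setd2-KO peaks, and over all genes it was 4.63. Of the eIF2 subunit genes on these chromosomes, Eif2s1 (the alpha subunit) had 1 control peak over 368 bases and Eif2s2 (the beta subunit) none. The gamma subunit genes Eif2s3x and Eif2s3y, on chromosomes X and Y, had no peak in either list and are not counted among the 52. Neither Eif2s1 nor Eif2s2 had a Setd2-KO peak.

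The guanine nucleotide exchange factor eIF2B, which recharges eIF2, was marked in control PTECs alone. Its genes Eif2b2, Eif2b3, Eif2b4 and Eif2b5 had 1, 1, 3 and 4 control peaks over 290, 331, 1246 and 1726 bases, Eif2b1 had none, and none of the 5 had a Setd2-KO peak. Together these genes held 3593 control and 0 Setd2-KO bases. None of the 4 marked genes reached 3000 control bases, and 2 were under 500. Over all genes, 11.3% of those under 500 control bases had a Setd2-KO peak. The shares were 28.3% from 500 to under 1500 control bases and 53.9% from 1500 to under 3000. The absence of a Setd2-KO peak in 4 such genes is therefore not read as a trait of the complex. Of the 4 eIF2 kinase genes, 3 were marked in control PTECs. Eif2ak1 (HRI, activated by haem shortage) had 5 control peaks over 3818 bases and 1 Setd2-KO peak over 841. Eif2ak4 (GCN2, activated by amino acid shortage) had 2 control peaks over 1112 bases and 1 Setd2-KO peak over 318. Eif2ak3 (PERK, the endoplasmic reticulum stress kinase) had 2 control peaks over 1426 bases and no Setd2-KO peak, and Eif2ak2 (PKR, activated by double-stranded RNA) had none in either list.

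The remaining genes of this group, Eif2a and Eif2d, code for proteins that can bring initiator tRNA to the ribosome without eIF2. Eif2a had 2 control peaks over 1310 bases and 1 Setd2-KO peak over 308. At its shared site the fold enrichment was 5.28 in control PTECs against 3.34 in Setd2-KO PTECs, and the summits were 21 bp apart. Eif2d had 1 control peak over 324 bases and no Setd2-KO peak.

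The eIF3 group, 14 genes for subunits of the largest initiation factor, had 9 genes marked in control PTECs and 4 marked in the Setd2-KO list, over 17938 and 3069 bases. The peaks were concentrated in Eif3a, Eif3b, Eif3c and Eif3d, the same 4 genes that had Setd2-KO peaks. Eif3c had 10 control peaks over 5698 bases and 4 Setd2-KO peaks over 1338. Eif3d, whose protein can itself bind the cap of certain mRNAs, had 7 control peaks over 5494 bases and 2 Setd2-KO peaks over 1064. Eif3a, which codes for the largest subunit, had 6 control peaks over 3562 bases and 1 Setd2-KO peak over 378. Eif3b had 4 control peaks over 1314 bases and 1 Setd2-KO peak over 289. Of the 4 Setd2-KO peaks of Eif3c, 3 touched no control peak and lay 166, 287 and 662 bp from the nearest. They therefore lay beside control peaks of a marked gene.

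The other 5 marked eIF3 genes had little coverage. Eif3f had 2 control peaks over 816 bases, and Eif3g, Eif3j1 and Eif3l had 1 each, over 304, 318 and 308 bases. Eif3h had 124 bases under a peak that reaches over its end, with the summit outside the gene. Eif3e, Eif3i, Eif3j2, Eif3k and Eif3m had no peak in either list. Of the paralogues Eif3j1 and Eif3j2, the marked gene has 8 exons and the unmarked gene 1.

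Of the 4 genes of the eIF1 group, which guards the choice of the start codon, only Eif1 was marked, with 2 control peaks over 1191 bases and 2 Setd2-KO peaks over 594. Eif1a, Eif1ad and the paralogue Eif1b had no peak in either list. The summit pileup at the larger Eif1 site was 56 fragments in control and 36 in Setd2-KO PTECs, the widest gap among the shared sites of these genes. Eif1 has near copies in the genome, and in its Setd2-KO peak at this site 45.5% of the 32-base words occurred once. In the eIF5 group, Eif5, the factor that triggers GTP hydrolysis by eIF2, had 4 control peaks over 3138 bases and 1 Setd2-KO peak over 493. Eif5b, the factor for subunit joining, had 7 control peaks over 2495 bases and 1 Setd2-KO peak over 326, which lay 423 bp from the nearest control peak. Eif5a and Eif5a2, whose proteins act mainly in elongation, had none in either list. Eif6, which codes for a factor that keeps the large ribosomal subunit from joining early, had 1 control peak over 400 bases and no Setd2-KO peak.

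At the level of single sites, 29 of the 129 control peaks touched a Setd2-KO peak (22.5%, interval 16.1 to 30.4), beside 12.5% of control peaks over all genes. The excess over all genes was not present when 50% of each peak had to overlap (6.20% in both), and at a fold enrichment of at least 4 it was 13.0% beside 11.4%. From the other side, 30 of 35 Setd2-KO peaks touched a control peak (85.7%, interval 70.6 to 93.7), beside 60.7% over all genes. Setd2-KO peaks in these genes thus mostly touched control peaks, counted at an overlap of at least 1 bp. A stricter overlap was not applied to this share. Control peaks covered a median of 6.37% of a marked member, beside 3.25% over all marked genes, and what this adds to touching was not tested. The 29 control peaks touched were longer (median 786 bp) and of higher fold enrichment (median 4.35) than the 100 not touched (403 bp and 3.79).

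The touching peaks formed 31 pairs, which shared 9 to 844 bp and whose summits were 10 to 828 bp apart (median 197). Median summit pileup was 38 fragments in control and 31 in Setd2-KO PTECs, and it was lower in Setd2-KO in 28 pairs, equal in 1 and higher in 2. Over all 1779 shared pairs it was lower in 1158, equal in 120 and higher in 501, with medians of 35 and 32. Median fold enrichment over the 31 pairs was 4.35 in control PTECs against 3.85 in Setd2-KO PTECs, and the median ratio of Setd2-KO to control was 0.884, beside 0.936 over all pairs. By fold enrichment 21 pairs were lower and 10 higher in Setd2-KO PTECs. In the 17 pairs with summits within 200 bp, pileup was lower in Setd2-KO PTECs in 16 and fold enrichment in 12. The Eif5 pair had the most distant summits, 828 bp apart, so its values are from different positions. There the pileup was 39 fragments in both lists, while fold enrichment was 2.86 in control PTECs against 4.93 in Setd2-KO PTECs. Of the 7 pairs in Eif4g2, all were lower in pileup and 4 were higher in fold enrichment in Setd2-KO PTECs. Sites called in both lists therefore had lower pileup in Setd2-KO PTECs in 28 of 31 pairs, though a pair exists only where both lists passed the caller's threshold.

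**Figure D4:**
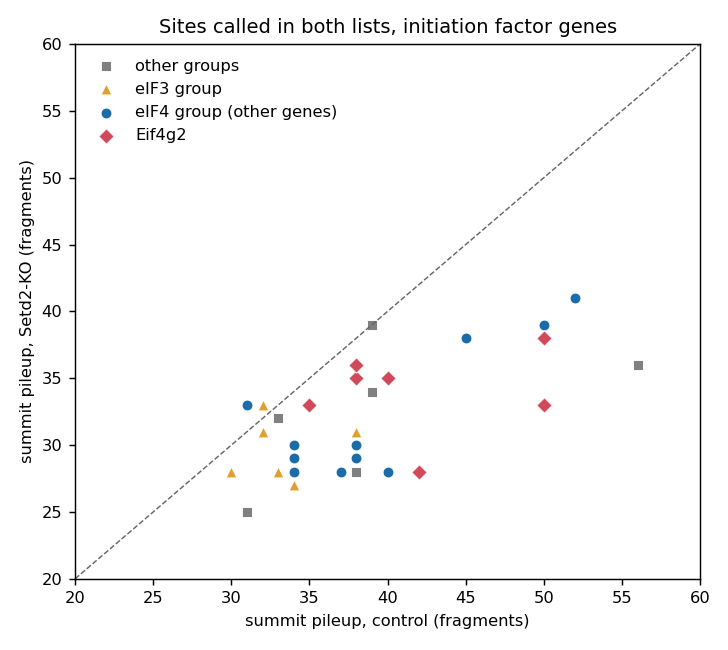
Summit pileup in fragments of the 31 pairs of overlapping control (horizontal) and Setd2-KO (vertical) peaks in initiation factor genes, with points of equal value drawn over each other. The dashed line marks equal pileup. Of the pairs 28 lie below it, 1 on it and 2 above it, and the point farthest below is the Eif1 site at 56 and 36 fragments.

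Along the gene, control peaks were few near the start. By midpoint, 6, 16, 31, 38 and 38 of the 129 fell in the successive 5 equal parts of the gene body. Midpoints beyond the gene's end (an Eif3h control peak and an Eif1 Setd2-KO peak) were counted in the last part. Of the control peaks 29.5% lay in the last part, beside 35.7% over all genes. The 35 Setd2-KO peaks were split 2, 3, 10, 14 and 6, with 17.1% in the last part, beside 35.1% over all genes. By summit, 72 control peaks (55.8%, interval 47.2 to 64.1) were intronic and 28 (21.7%, interval 15.5 to 29.6) in coding exons. Of the Setd2-KO peaks, 13 (37.1%, interval 23.2 to 53.7) were intronic and 13 in coding exons. Summit classes were not counted over all genes, so a difference particular to these genes is not shown. With 35 Setd2-KO peaks, of which 8 are in Eif4g2, these shares move with single genes.

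Other genes of translation, given as lists for comparison, were marked in shares between 47.0% and 59.1% in control PTECs. For elongation and termination factors, 7 of 14 had a control peak and 3 of those 7 a Setd2-KO peak (Eef2 had the most control bases, 4259 with 1290 in Setd2-KO PTECs). For regulators of initiation, 17 of 29 had a control peak and 8 of those 17 a Setd2-KO peak, led by Gcn1l1, the partner of GCN2, with 5435 and 334 bases. The cytosolic tRNA synthetases, listed together with Aimp1 and Aimp2 of their complex, had 13 of 22 and 5 of those 13. Iars led them with 4550 and 0 bases. The cytosolic ribosomal proteins, taken by symbol and so including Rpl7l1, had 39 of 83 and 8 of those 39. Rpl3 led them with 2102 and 0 bases. The ratio of control to Setd2-KO bases was 5.01, 5.09, 11.02 and 8.09 in these 4 lists, against 4.69 in the initiation factor genes with Eif4g2 and 6.09 without it.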

How the data were processed

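H3K36me3 ChIP-seq of control and Setd2-KO PTECs comprised 4 libraries, grouped by GEO's labels. The study in 1 place names other material for the ChIP (cysts and tumour masses from mice that overexpress MYC), and the labels were followed. The submitters' processing notes name cutadapt 1.9.1, Trimmomatic 0.35 and FastQC for read cleaning, Bowtie2 2.2.6 for mapping to GRCm38 and MACS2 2.1.1 for peak calling, which was done for each ChIP library against its own input. The authors' methods state a p-value threshold of 0.01, but the lowest -log10 q in the deposited lists was 3.09 (control) and 3.08 (Setd2-KO), so a stricter filter had been applied. Elsewhere the study names a filter with a minimum fold enrichment of 5, but 94.3% of the control and 92.5% of the Setd2-KO peaks are below it, so which filter gave these lists is unclear. The deposited pileup is a signal, namely how many extended fragments cover the summit. The deposited fold enrichment is the ratio of pileup to local background, each plus 1. The deposited -log10 p and -log10 q come from the authors' caller. No read count was used, and depth was read only from the background, the lowest value that the pileup and fold enrichment imply (54.8% of control peaks and 52.2% in the Setd2-KO list had it to within 1%).

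A peak was assigned to each gene whose body it overlapped by at least 1 bp, and bases were counted once per gene. Peaks of both lists were paired at an overlap of at least 1 bp. Exons were numbered in the coding transcript of each gene with the longest coding sequence, and a summit was classed over all transcripts in the order coding exon, UTR, exon of a non-coding transcript and intron. Words of 32 bases were counted on both strands of the RefSeq GRCm38.p6 genome. Python 3.11.15, numpy 2.4.6, pandas 2.3.3 and scipy 1.17.1 were used, and the overlap code was tested on simulated peaks. Named genes were those with a Setd2-KO peak and up to 4 per factor group with the most control bases. So were paralogues of which only 1 was marked and the 5 strongest peaks of each list within the members. Up to 3 genes were named per comparison list, and every other member is given with its peaks and bases. Members, lists and alternatives were chosen with earlier results of these data known. No test between genotypes was made. Alternatives changed the peak threshold, the overlap, the gene limits, the peaks per gene and the member list.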

Additional observations from a re-analysis of the deposited data

How the results depend on the processing

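Of 90 alternative values for 10 results, 78 stayed within the limits set for them, 12 moved and none reversed. Requiring a fold enrichment of at least 4 left 54 control and 11 Setd2-KO peaks, over 38708 and 5907 bases. At that threshold 25 genes had a control peak, 7 had a Setd2-KO peak and the same number had both, so that 28% of control-marked genes kept a peak (23.8% over all genes), and 13.0% of control peaks touched a Setd2-KO peak (11.4% over all genes). Requiring at least 2 peaks in a gene left 8 genes with Setd2-KO peaks and 8 with both, 32% of the control-marked (19.5% over all genes). The share of control peaks that touch a Setd2-KO peak was 6.20% with a reciprocal overlap of 50% of each peak (also 6.20% over all genes) and 34.9% when peaks within 1 kb were paired (20.96% over all genes). The shares over all genes were added after seeing the data. Leaving out Eif4g2, an alternative chosen after seeing the data, gave a ratio of covered bases of 6.09 and a touching share of 18.9%. The caller's threshold limits what these lists can show: a site under about 21 fragments in control or 23 in Setd2-KO PTECs is not listed. No paired analysis was possible because each genotype had 1 ChIP library and no test was run.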
